A study of Mus musculus and Rattus norvegicus with 32 samples.

Results

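The measurements described here are the levels of 10 antioxidant genes controlled by NRF2 in the hearts and cardiomyocytes of a study of the RNA methyltransferase METTL5. The genes are Nfe2l2, which encodes NRF2 itself, and Hmox1, Nqo1, Gclc, Gclm, Txnrd1, Srxn1, Slc7a11, Sod2 and Gpx3. They were found by their symbols in the 4 deposited tables of estimated counts: all 10 in the mouse tables, which list 55487 genes each, and 9 of 10 in the rat table of 32883 genes, where no row carries the symbol Srxn1. Every member found also passed the filter on low counts. The mouse groups were hearts of 1-month-old C57BL/6 animals labelled Mettl5-KO, a knockout for which the labels name no Cre driver, with their controls (Ctrl), hearts of 3-month-old animals labelled Mettl5-cKO with their controls, and hearts of cKO animals and controls taken 4 weeks after transverse aortic constriction (TAC), an operation that narrows the aorta and overloads the left ventricle. The labels give 3 months as the age of the TAC animals too, and 1 field of the labels calls the cKO animals Mettl5-KO. In the cKO line exons 2 to 4 of Mettl5 are floxed and removed by Myh6-Cre, a recombinase driven by a cardiomyocyte promoter, so the other cells of the heart keep the gene, and the labels do not give the alleles of the controls. The rat groups were neonatal ventricular cardiomyocytes (NRVMs) of Sprague Dawley rats at postnatal day 2, infected with an adenovirus for METTL5 (AdMETTL5) or for green fluorescent protein (AdGFP), and both groups received 20 μM phenylephrine (PE), an adrenergic agonist that drives hypertrophy, for 24 h. Fibroblasts had been reduced there by pre-plating for 1 h. Each of the 8 groups has 4 libraries, and nothing in the labels says whether these are separate animals or cultures, so the p-values measure the spread between libraries, which may be technical.

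NRF2 is a transcription factor that is held in the cytoplasm and passed to the proteasome by KEAP1 while the cell is at rest. Oxidants and electrophiles modify KEAP1, and NRF2 then accumulates, pairs with a small MAF protein and binds the antioxidant response element of its targets. Its own activity is therefore set largely at the protein level, and the RNA of its targets is the usual readout. The targets listed here cover haem breakdown and quinone reduction (Hmox1, Nqo1), the supply and synthesis of glutathione (Slc7a11, Gclc, Gclm), the thioredoxin and peroxiredoxin systems (Txnrd1, Srxn1), and the enzymes that remove superoxide and peroxide (Sod2, Gpx3). The heart has a high oxygen use and many mitochondria, and oxidative stress is a known part of its response to pressure overload. Several of these genes have other regulators too: Slc7a11 is also a target of ATF4, and Sod2 of NF-κB.

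The core of the antioxidant response element, TGACNNNGC, was searched on both strands in the RefSeq promoter windows of the mouse (GRCm38.p6, 250 bases before to 50 after each annotated start). The table held 10 windows of 8 members, with 3 windows for Txnrd1 and none for Hmox1 and Gclc. The core was in 4 of the 10 windows, those of Nfe2l2, Gclm, Srxn1 and 1 of Txnrd1, against 12.4% of all 32851 windows. In Srxn1 it began 28 bases after the start, as GCTAGGTCA. No window of Nqo1, Slc7a11, Sod2 or Gpx3 held these letters, which says nothing of sites outside the window. The 250 bases before the start are shown for the other 3 members, since these are the genes whose own promoter carries the letters that name the group. The core is in capitals, and in Gclm and Txnrd1 it lies on the opposite strand, so that it reads GCNNNGTCA.
Nfe2l2 (chr2:75704664-75704913, minus strand): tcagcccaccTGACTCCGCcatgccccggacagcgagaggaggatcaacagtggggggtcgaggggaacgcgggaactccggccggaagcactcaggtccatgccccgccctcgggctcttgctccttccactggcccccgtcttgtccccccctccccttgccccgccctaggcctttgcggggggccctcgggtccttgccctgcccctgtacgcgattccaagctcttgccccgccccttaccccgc
Gclm (chr3:122245307-122245556, plus strand): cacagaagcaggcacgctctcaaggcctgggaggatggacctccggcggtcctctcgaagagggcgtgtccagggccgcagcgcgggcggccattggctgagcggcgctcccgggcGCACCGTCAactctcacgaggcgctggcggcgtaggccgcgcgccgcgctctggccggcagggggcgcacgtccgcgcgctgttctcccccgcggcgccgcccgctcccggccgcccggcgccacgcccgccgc
Txnrd1 (chr10:82858956-82859205, plus strand): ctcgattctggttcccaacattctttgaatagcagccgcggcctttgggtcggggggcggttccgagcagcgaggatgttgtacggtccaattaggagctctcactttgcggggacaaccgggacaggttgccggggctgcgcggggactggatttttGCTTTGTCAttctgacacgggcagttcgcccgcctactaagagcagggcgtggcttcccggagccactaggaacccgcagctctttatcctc
The core began 240 bases before the start in Nfe2l2, 134 in Gclm and 92 in Txnrd1.

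Total counts per library ranged from 19899033 to 21804907 in the hearts and from 14324700 to 18085339 in NRVMs, where every AdMETTL5 library was smaller than every AdGFP library. Levels are given as CPM, the counts of a gene relative to all counts of its library, with library sizes scaled by edgeR's TMM method. The control group at 1 month was uneven, with TMM factors from 0.796 in library 3 to 1.25 in library 1, and these libraries also had the highest summed CPM of erythroid markers (library 3, 4569) and of neutrophil markers (library 1, 50.8) of the group. The RNA of Mettl5 did not separate the genotypes in any heart table: the log2 fold change was 0.22 at 1 month, -0.18 at 3 months and -0.04 after TAC, with adjusted p of 0.874 or more by edgeR's quasi-likelihood test. A count over the whole gene also takes in exons outside a deletion and, in the cKO line, the other cells. With these counts alone the genotypes rest on the labels. For the cKO line the authors report hardly any reads over the floxed exons. In NRVMs the virus carries the human gene, which the rat table does not measure as such. The rat gene Mettl5 had 17.0 ± 0.774 CPM with AdGFP and 21.2 ± 1.76 with AdMETTL5, without overlap (log2 fold change 0.32, adjusted p = 0.00295 by edgeR). All 7 fibroblast markers were detected in NRVMs, with a summed level between 9112 and 12144 CPM, so these cultures were not free of fibroblast RNA. The RNA of cardiomyocytes was present in all groups. In these bulk libraries, fewer cells of a type and less RNA per cell cannot be told apart.

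Within a heart the 10 genes spanned a wide range per kilobase of exon. The glutathione peroxidase of plasma, Gpx3, was the highest in each of the 6 heart groups, with 82.7 ± 5.69 CPM per kilobase in the 3-month controls (SD, n = 4). Sod2, the superoxide dismutase of mitochondria, followed with 35.2 ± 1.74. The quinone reductase Nqo1 had 16.6 ± 1.67 and Nfe2l2 13.2 ± 4.07, and with these spreads their ranges overlapped. Srxn1, which repairs oxidised peroxiredoxins, had 5.60 ± 0.834 and stood above the haem oxygenase Hmox1 with 3.54 ± 1.58, although the ranges of this pair overlapped too. The thioredoxin reductase Txnrd1 (3.22 ± 0.825) and the catalytic and modifier subunits of glutamate-cysteine ligase, Gclc (2.69 ± 0.240) and Gclm (1.95 ± 0.137), lay below. The lowest was the cystine transporter Slc7a11, with 0.256 ± 0.0276 CPM per kilobase, and it kept this place in every heart group. The lengths take all annotated exons of a gene together, 1813 bases for Gpx3 and 10008 for Sod2, and the order of this pair depends on them. Without division by length the mean of Sod2 was above that of Gpx3 in every heart group but the cKO hearts after TAC. It was 352 against 150 CPM in the 3-month controls, and 273 against 396 in the cKO hearts after TAC.

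**Figure D1:**
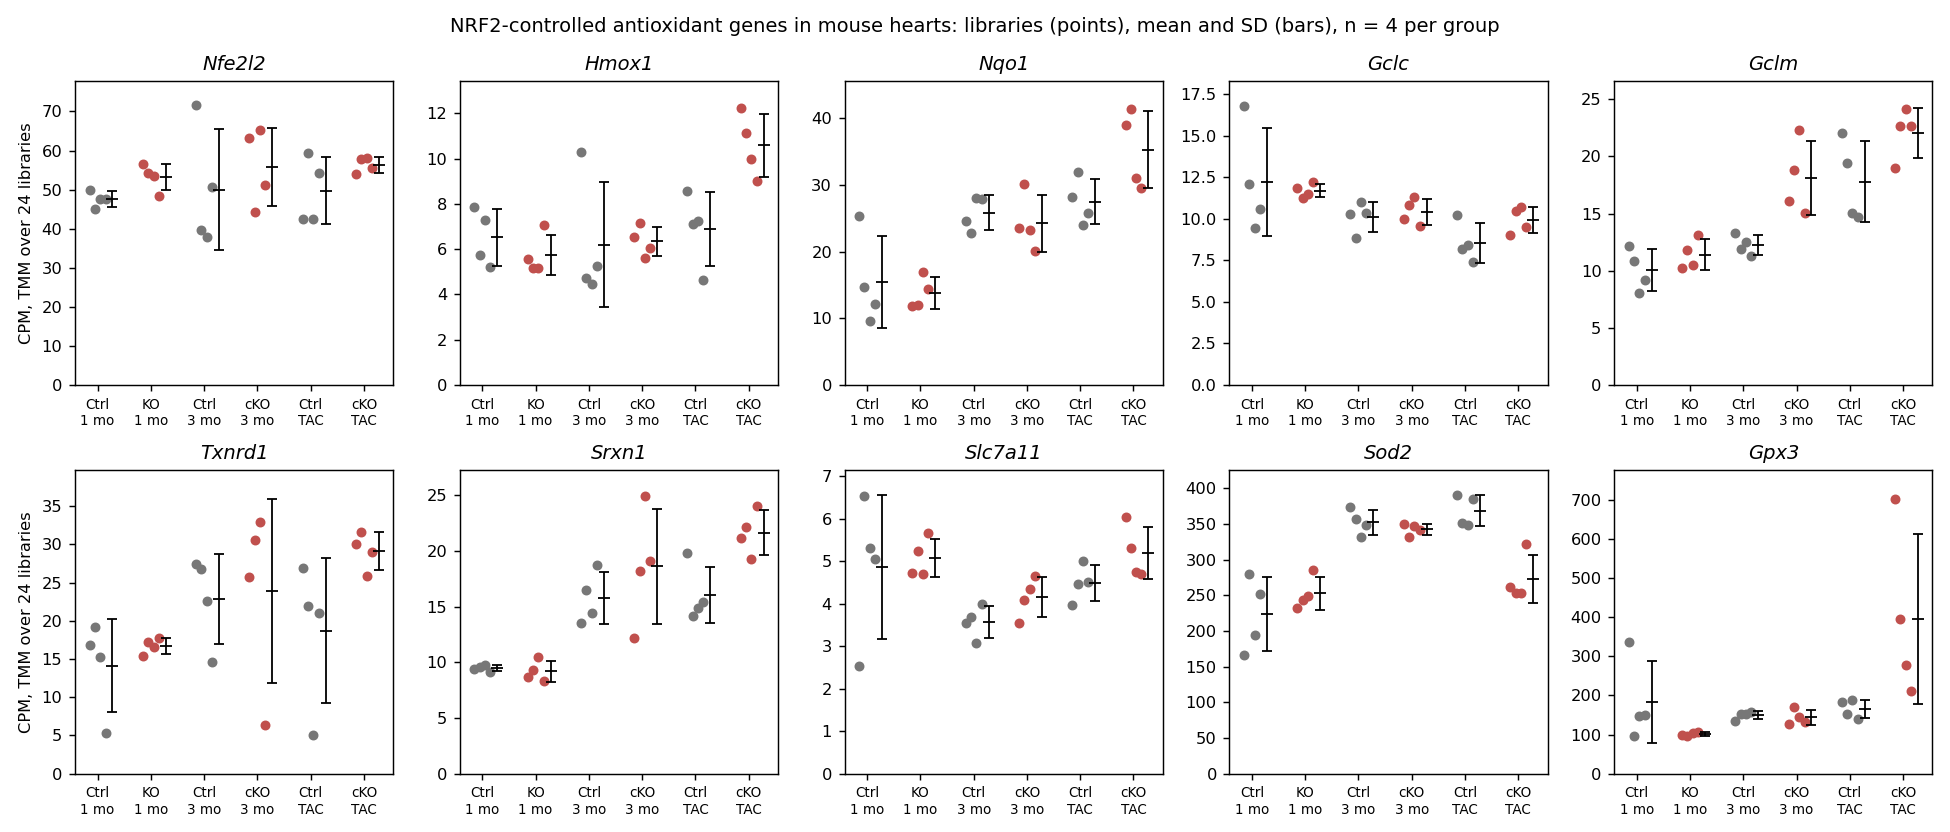
Levels of the 10 genes in 24 mouse heart libraries, in CPM on TMM factors fitted over all 24 (vertical axis, starting at 0), by group (horizontal axis). Points are libraries, bars the mean and SD (n = 4), grey Ctrl and red KO or cKO. Gpx3 is high and uneven in the cKO hearts after TAC, Sod2 is low there, and single libraries with little Txnrd1 are visible in 3 groups.

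The TAC hearts answer the question of how the genes stand in overloaded hearts that lack METTL5 in cardiomyocytes. In these hearts Gpx3, Hmox1 and Srxn1 were higher than in the TAC controls and Sod2 was lower. That makes 4 of 10 members called at an adjusted p under 0.05 (edgeR's quasi-likelihood test, adjusted by Benjamini and Hochberg's method over 16340 genes), beside 12.7% of all genes tested, and 3 higher beside 6.57%. Of the 10 log2 fold changes 9 were above 0, beside 49.4% of all genes, with a median of 0.32 beside -0.0035 over all genes. With an absolute log2 fold change over 1 in addition 1 of 10 was called, Gpx3, beside 2.90%. With scaling by library size alone, which raises the median of all genes by 0.147 on the log2 scale, 2060 of 2584 calls over all genes were higher, against 1074 of 2071 here, and the 4 members kept their calls. Nqo1 was called as well under that scaling. Without the filter on low counts Gpx3 (adjusted p = 0.0713), Hmox1 (0.0918) and Srxn1 (0.0817) lost their calls by edgeR and Sod2 alone was called. The calls of Hmox1 and Srxn1 lay at the threshold, and all 4 were sensitive to single libraries. Without control library 2, control library 4 or cKO library 2 no member was called, and between 1 and 4 were called when one of the others was left out. The direction of each of the 4 was the same in every one of these fits.

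Gpx3 lies on chromosome 11 of GRCm38 from 54902453 to 54910377 (ENSMUSG00000018339). Its product is secreted and uses glutathione to reduce peroxides outside the cell. It had 189, 158, 195 and 145 CPM in TAC control libraries 1 to 4 and 714, 404, 285 and 217 CPM in the cKO libraries. The groups did not overlap, as was so for 9.41% of all genes in this direction, and the cKO libraries differed among themselves more than the controls did. The fold was 2.36, 1.24 on the log2 scale (SE, the standard error, 0.321, adjusted p = 0.0360 by edgeR). The exact two-sided permutation test gave p = 0.0286, the smallest that 4 against 4 libraries allow. Without cKO library 1, which was the highest, the log2 fold change was 0.82 and the adjusted p 0.0495. The call was lost in 5 of the 8 fits that left out a library, with adjusted p from 0.0630 to 0.104 by edgeR. The summed CPM of the 7 fibroblast markers was 2607, 1802, 1770 and 808 in cKO libraries 1 to 4, against 512 to 669 in the controls. The cKO libraries thus stood in the same order by Gpx3 as by the fibroblast markers. Macrophage markers gave this order too, with summed CPM of 395, 351, 325 and 308. Among the controls neither list ordered the libraries as Gpx3 did. The part of either cell type in the level of Gpx3 was not tested.

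Sod2 lies on chromosome 17 from 13006846 to 13040063 (ENSMUSG00000006818). It had 404, 365, 359 and 397 CPM in the TAC controls and 266, 259, 259 and 332 in the cKO libraries. Every cKO library was below every control, as was so for 9.16% of all genes, and library 4 was nearer to the controls than its group. The fold was 0.733, -0.45 on the log2 scale (SE 0.0989, adjusted p = 0.0223 by edgeR, exact permutation p = 0.0286). Scaled by library size alone it was -0.31 and still called (adjusted p = 0.0260). Sod2 was the only member called lower in these hearts, where 6.10% of all genes were. The summed CPM of cardiomyocyte markers moved the same way, with 1 of 6 markers called lower. It was 24267 to 28148 in the controls and 21378, 19686, 19492 and 23786 in cKO libraries 1 to 4. Of 6 endothelial markers 5 were called lower, with summed CPM of 412, 429, 407 and 537 in cKO libraries 1 to 4 against 585 to 698 in the controls. Library 4 was nearest to the controls for the cardiomyocyte and the endothelial markers, as for Sod2. The part of either cell type in the result was not tested.

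Hmox1 (chromosome 8 from 75093621 to 75100589, ENSMUSG00000005413) breaks down haem to biliverdin, iron and carbon monoxide. Its levels were low, with 8.88, 7.39, 7.49 and 4.80 CPM in the TAC controls and 12.45, 11.4, 10.2 and 9.29 in the cKO libraries. The groups did not overlap, by a margin of less than 1 CPM. The log2 fold change was 0.60 (SE 0.173), a fold of 1.52, with an adjusted p of 0.04998 by edgeR's quasi-likelihood test, at the threshold itself. The nearest target by role, Nqo1 (chromosome 8 from 107388225 to 107403206), had 29.3, 33.1, 24.8 and 26.6 CPM against 39.7, 42.3, 31.8 and 30.5. Its groups overlapped only in that control 2 was above cKO libraries 3 and 4, and its log2 fold change of 0.34 (SE 0.131) was not called (adjusted p = 0.109 by edgeR). With library size alone it was 0.49 and called (adjusted p = 0.0456), and it was called without cKO library 4 too (0.42, adjusted p = 0.0410). Macrophages, which take up old red cells, also express Hmox1. Of 8 macrophage markers 3 were higher in the cKO hearts (Adgre1, Mrc1 and Lyz2) and their summed level was 308 to 395 CPM against 228 to 297, and their part in Hmox1 was not tested.

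Srxn1 (chromosome 2 from 152105516 to 152111376, ENSMUSG00000032802) reactivates peroxiredoxins that peroxide has inactivated. It had 20.5, 14.7, 15.35 and 15.96 CPM in the TAC controls and 21.6, 22.7, 19.7 and 24.8 in the cKO libraries. The groups touched, since cKO library 3 was below control 1. The log2 fold change was 0.42 (SE 0.119, adjusted p = 0.0491 by edgeR; exact permutation p = 0.0571), a fold of 1.33. Without control 1 it was 0.54, with an adjusted p of 0.0242. The call was lost in 7 of the 8 fits that left out a library, with adjusted p from 0.0579 to 0.123 by edgeR. Txnrd1 (chromosome 10 from 82833951 to 82897712), which keeps thioredoxin reduced in the cytosol, had the second largest log2 fold change of the group, 0.62, but with an SE of 0.376 it was not called (adjusted p = 0.296 by edgeR). Its levels were 27.8, 22.7, 5.20 and 21.7 CPM in the controls and 30.65, 32.4, 26.4 and 29.9 in the cKO libraries. Control library 3 stood far below the others, and without it the log2 fold change was 0.32 (adjusted p = 0.115). Low libraries of the same kind occurred in cKO at 3 months (library 4, 6.62 CPM) and in Ctrl at 1 month (library 4, 5.03 CPM).

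None of the 3 glutathione genes was called after TAC. Gclm (chromosome 3 from 122245557 to 122270732) had 22.9, 20.1, 15.5 and 15.2 CPM in the controls and 19.3, 23.15, 24.65 and 23.3 in the cKO libraries, a log2 fold change of 0.30 (SE 0.142, adjusted p = 0.190 by edgeR). Gclc (chromosome 9 from 77754535 to 77794485) had a log2 fold change of 0.20 and Slc7a11 (chromosome 3 from 49892526 to 50443614) of 0.20, with adjusted p of 0.257 and 0.291 by edgeR. Nfe2l2 itself (chromosome 2 from 75675513 to 75704641) had 44.0, 61.6, 43.9 and 56.1 CPM in the controls and 54.9, 59.2, 59.5 and 57.2 in the cKO libraries. The cKO libraries lay within the range of the controls, and the log2 fold change of 0.17 (95% interval from -0.09 to 0.42) was not called. The count of Gclm is uncertain, because Gm17494 overlaps it on the other strand with at least 279 counts in every library beside 298 to 610 of Gclm in this table, and whether the counting used strand is not given in the sources used here. Gm17494 had a log2 fold change of 0.13 (adjusted p = 0.389 by edgeR). The annotation also places other genes over Nfe2l2, Txnrd1 and Slc7a11, so their counts carry the same doubt.

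**Figure D2:**
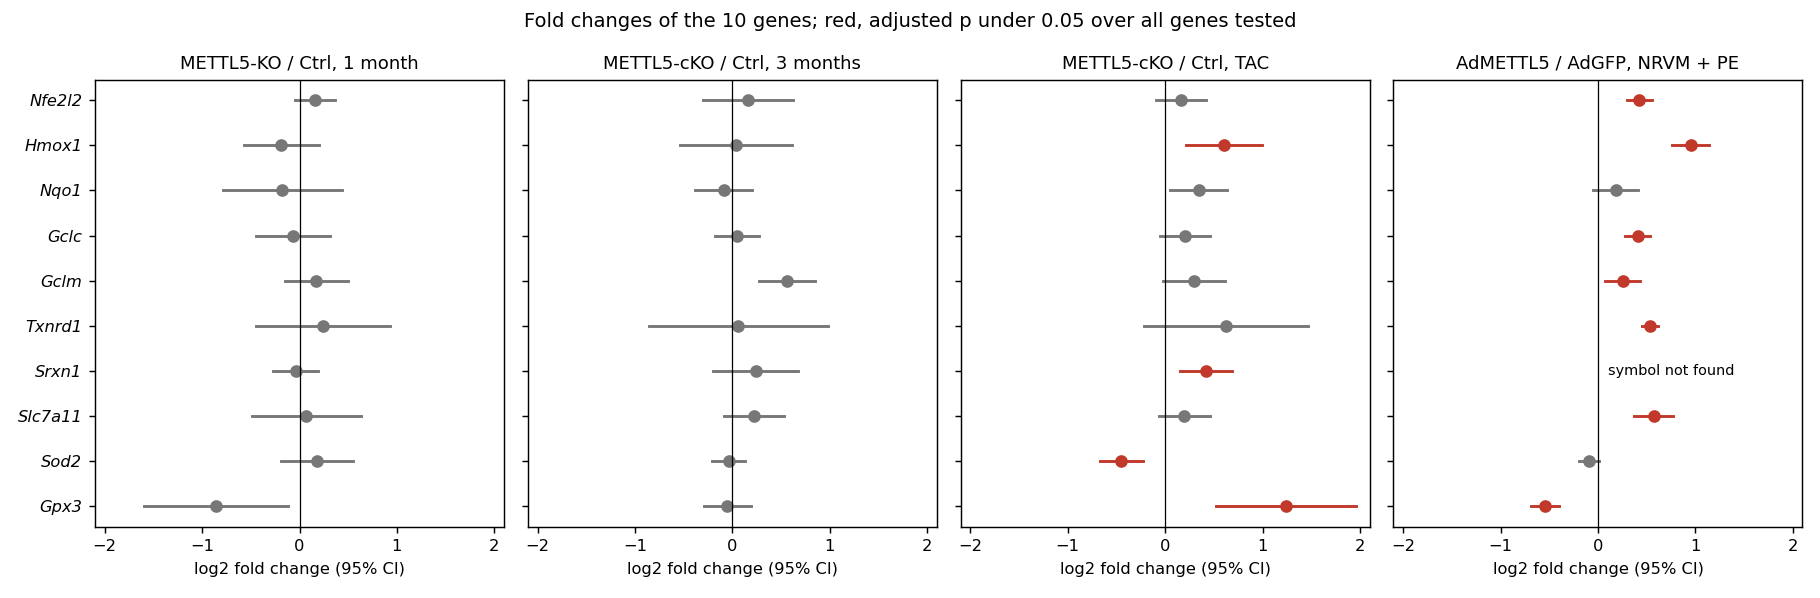
Log2 fold changes of the 10 genes with their 95% confidence intervals (horizontal axis) in the 4 comparisons, 4 against 4 libraries each. Red marks an adjusted p under 0.05 over all genes tested. No gene is red at 1 or 3 months, 4 of 10 are after TAC and 7 of 9 in NRVMs, and Gpx3 lies on opposite sides of 0 in the last 2.

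Without the operation, no member was called in either heart table. At 3 months 0 of 10 were called beside 0.0732% of 16391 genes, and 1 of 10 had an unadjusted p under 0.05 beside 7.05%. That gene was Gclm, the modifier subunit, with 13.8, 12.4, 12.9 and 11.6 CPM in the controls and 16.7, 19.6, 22.8 and 15.7 in the cKO libraries. The groups did not overlap, as was so for 2.19% of all genes in this direction. Its log2 fold change was 0.56 (SE 0.130, adjusted p = 0.294 by edgeR's quasi-likelihood test), and DESeq2's Wald test gave an adjusted p of 0.0372. Gm17494 on the other strand had a log2 fold change of 0.12 there. The summed CPM of fibroblast markers was 376 to 499 in the controls and 618, 671, 460 and 557 in cKO libraries 1 to 4, with 0 of 7 markers called. Library 3, with the most Gclm of the cKO group, had the lowest of these sums. Macrophage markers summed to 154 to 204 CPM in the controls and 190 to 278 in the cKO libraries. Endothelial markers summed to 496 to 781 and 390 to 591, and no marker of either list was called. The part of these cell types in Gclm was not tested. The other 9 members had log2 fold changes between -0.09 and 0.24, with Srxn1 the highest and Nqo1 the lowest. Sod2 was the most tightly measured of them, at -0.04 with a 95% interval from -0.21 to 0.13. DESeq2 called no other member at 3 months.

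At 1 month 0 of 10 members were called, beside 0.00612% of 16329 genes, and 1 of 10 had an unadjusted p under 0.05 beside 4.57%. This was Gpx3, with 318.5, 90.1, 139 and 142 CPM in the controls and 93.5, 90.1, 98.0 and 99.5 in the hearts labelled Mettl5-KO. Control library 1 carried most of the difference, since the log2 fold change was -0.86 (SE 0.328, adjusted p = 0.973 by edgeR) with it and -0.37 without it. The same library had the highest Nqo1 (24.0 CPM against 9.12 to 13.7 in the other controls) and the lowest Slc7a11 and Sod2 of its group. Nfe2l2 had the smallest standard error, with 47.1, 42.0, 45.0 and 44.8 CPM in the controls and 53.6, 51.1, 50.3 and 45.0 in the KO hearts, a log2 fold change of 0.16 (95% interval from -0.04 to 0.37). DESeq2's Wald test called none of the 10 members here either.

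Set beside the 3-month hearts in a joint fit of 16 libraries, the TAC controls showed no called member, and the cKO hearts showed 4. In the controls 0 of 10 were called beside 0.516% of 17070 genes, and 3 of 10 had an unadjusted p under 0.05 beside 17.6%: Gclm (log2 fold change 0.54, adjusted p = 0.0929 by edgeR), Slc7a11 (0.33) and Gclc (-0.25). In the cKO hearts Gpx3 (log2 fold change 1.45, adjusted p = 0.00156), Hmox1 (0.74, adjusted p = 0.0374) and Nqo1 (0.54, adjusted p = 0.0128) were higher after TAC and Sod2 was lower (-0.33, adjusted p = 0.00961), all by edgeR. That is 4 of 10 beside 19.1% of all genes, with 3 higher beside 10.2% and 1 lower beside 8.89%. Of 7 fibroblast markers 6 were higher in this contrast and of 8 macrophage markers 6. The operation and the table cannot be told apart in these contrasts, and the labels name no sham operation. Both use the cKO and control libraries of the comparisons above, so they do not add separate evidence. The call of Hmox1 was lost in 6 of 16 fits that left out a library. All 6 left out a cKO library, of which there were 4 at 3 months and 4 after TAC. The fits without a control library kept the call, but control libraries do not enter the means of this contrast. Without cKO library 2 after TAC Nqo1 was lost too.

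Whether the effect of the genotype differed between TAC and 3 months was tested by the difference of the 2 log2 fold changes. No member passed (0 of 10 beside 0.00586% of 17070 genes). At an unadjusted p under 0.05 there were 3 of 10, beside 11.8% of all genes. These were Gpx3 with a difference of 1.31 (SE 0.368, adjusted p = 0.174 by edgeR), Sod2 with -0.40 (SE 0.115, adjusted p = 0.186) and Nqo1 with 0.45 (SE 0.195, adjusted p = 0.384). DESeq2's Wald test called Gpx3 and Sod2 (adjusted p of 0.0383 and 0.0317), and so did edgeR when cKO library 4 after TAC was left out. For Hmox1 the difference was 0.58, with a 95% interval from -0.13 to 1.29. Without control library 1 at 3 months, which was high in Hmox1, the difference was 0.22 (adjusted p = 0.803 by edgeR). The intervals of Nfe2l2 (-0.52 to 0.56) and Srxn1 (-0.33 to 0.71) were wide as well.

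In NRVMs the comparison asks how the genes stand when METTL5 is supplied during PE treatment. Hmox1, Slc7a11, Txnrd1, Nfe2l2, Gclc and Gclm were higher with AdMETTL5 and Gpx3 was lower, while Nqo1 and Sod2 were not called. These are 7 of 9 members, beside 52.8% of 15041 genes, with 6 higher beside 27.1% and 1 lower beside 25.7%. Over all genes, 4082 of 7949 calls were higher, and 5872 of 8215 with scaling by library size alone. No member had an absolute log2 fold change over 1, as 5.85% of all genes did together with a call. The 7 called members were the same 7 whose libraries did not overlap between the groups (6 higher, beside 25.2% of all genes, and 1 lower, beside 23.1%). The median log2 fold change of the 9 was 0.41, beside -0.0022 over all genes.

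**Figure D3:**
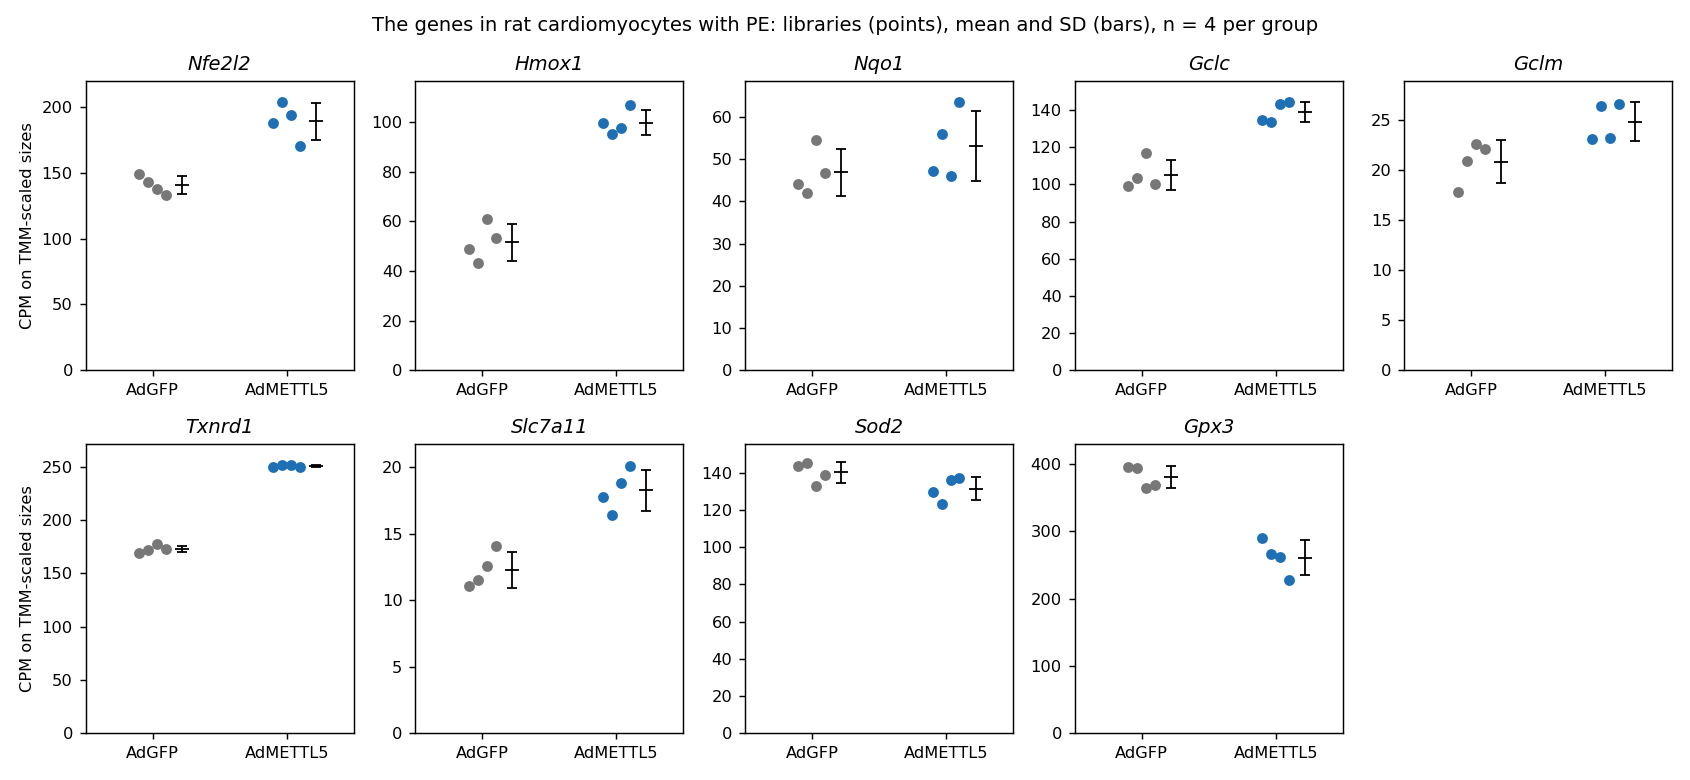
Levels of the 9 genes found in the rat table in NRVMs with PE, in CPM on TMM-scaled library sizes (vertical axis, starting at 0) for AdGFP (grey) and AdMETTL5 (blue). Points are libraries, bars the mean and SD (n = 4). The groups are apart in 7 panels and overlap for Nqo1 and Sod2.

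Hmox1 had the largest log2 fold change of the 9 genes in these cells. It had 48.8, 43.1, 61.05 and 53.1 CPM with AdGFP and 99.4, 95.2, 97.5 and 107 with AdMETTL5, a fold of 1.94 and 0.95 on the log2 scale (SE 0.0868, adjusted p = 2.95e-06 by edgeR). Every AdMETTL5 library was well above every AdGFP library. Nqo1, the other target of its role, had 44.2, 41.9, 54.6 and 46.7 CPM against 47.2, 55.9, 45.95 and 63.5. These ranges overlapped, and the log2 fold change of 0.18 (95% interval from -0.05 to 0.41) was not called by edgeR (adjusted p = 0.173). With scaling by library size alone Nqo1 was called too (0.32, adjusted p = 0.0454), since that scaling raises the median of all genes by 0.135 on the log2 scale.

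Nfe2l2 itself was higher with AdMETTL5, at 149, 143, 137 and 133 CPM with AdGFP and 188, 204, 194 and 171 with AdMETTL5. The log2 fold change was 0.43 (SE 0.0585, adjusted p = 7.5e-05 by edgeR). The thioredoxin reductase Txnrd1 had the smallest SE of the 9 genes. It had 170, 172, 177 and 173 CPM with AdGFP and 251, 252, 252 and 250 with AdMETTL5, a log2 fold change of 0.54 with an SE of 0.0378 (adjusted p = 3.62e-07). The libraries within each group were nearly equal.

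The 3 genes that supply glutathione were all higher. Slc7a11, which brings cystine into the cell, rose from 11.0, 11.5, 12.6 and 14.1 CPM to 17.7, 16.4, 18.8 and 20.1, a change of 0.57 on the log2 scale (SE 0.0912, adjusted p = 0.000233 by edgeR). Gclc rose from 99.0, 103, 117 and 100.3 CPM to 135, 134, 143 and 144 (0.41, SE 0.0570, adjusted p = 8.72e-05). Gclm rose from 17.8, 20.9, 22.6 and 22.1 CPM to 23.1, 26.45, 23.2 and 26.65 (0.25, SE 0.0838, adjusted p = 0.0233). The groups of Gclm were apart by less than 1 CPM, and its call was lost when AdGFP library 1, AdMETTL5 library 2 or AdMETTL5 library 4 was left out, with adjusted p from 0.0566 to 0.0703. The others kept their calls in all 8 such fits.

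The enzymes that act on superoxide and peroxide were lower or not called. Gpx3 fell from 396, 394, 364 and 369 CPM to 290, 266, 262 and 227, a log2 fold change of -0.54 (SE 0.0672, adjusted p = 3.2e-05 by edgeR). It stayed lower under scaling by library size alone (-0.41). Sod2 had 144, 146, 133 and 139 CPM with AdGFP and 130, 123, 136 and 137 with AdMETTL5, which overlap, and its log2 fold change of -0.09 (95% interval from -0.20 to 0.01) was not called and was 0.046 with library size alone. Markers of cells moved strongly in this table. The 5 cardiomyocyte markers that the table lists, of 6, were all lower, with a summed level of 6649 to 7420 CPM against 13788 to 16633. Of 7 fibroblast markers 6 were lower (9112 to 10042 against 11531 to 12144), as were 3 of 5 macrophage markers, while 3 of 5 mural markers were higher. Of the macrophage markers Cd163 was listed at 0 in every library, while Adgre1 (45.3 ± 5.23 to 32.7 ± 4.88 CPM) and Lyz2 (32.6 ± 3.16 to 18.2 ± 1.68 CPM) were present. The part of the cell mixture in these results was not tested.

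Side by side, Hmox1 was called higher both in cKO hearts after TAC and in NRVMs given AdMETTL5. Gpx3 was called in opposite directions, higher in the cKO hearts and lower with AdMETTL5. Sod2 was called lower in the hearts and was not called in NRVMs, and the reverse held for Slc7a11, Txnrd1, Nfe2l2, Gclc and Gclm, which were called higher in NRVMs. These tables differ in species, age, cell mixture and stress, and the difference between them was not tested.

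The control of NRF2 was read from a list of 11 genes of its machinery, among them Keap1, Cul3 and the small MAF genes. After TAC 2 of 11 were higher in the cKO hearts and none lower, both small MAF genes that can pair with NRF2: Maff (6.42 ± 0.248 to 13.1 ± 5.18 CPM, log2 fold change 1.03, adjusted p = 0.0238 by edgeR) and Mafk (30.3 ± 3.61 to 59.7 ± 18.9 CPM, 0.98, adjusted p = 0.0197). The share of all genes called higher was 6.57%, and the median of the list was 0.02. In NRVMs 3 of 11 were higher and 3 lower, with a median of 0.10, and these counts are near the shares of all genes called there (27.1% higher, 25.7% lower). The higher ones were Mafg (log2 fold change 0.62), the autophagy receptor Sqstm1 (0.61), which binds KEAP1, and Bach1 (0.58), a repressor of Hmox1. Nfe2l1, a relative of NRF2, was lower by a small step (-0.17, adjusted p = 0.00549 by edgeR). At 1 and 3 months none of the 11 was called, and at 3 months Sqstm1 had the smallest p, with a log2 fold change of 0.34 (adjusted p = 0.438 by edgeR). In the cKO hearts after TAC against 3 months 2 of 11 were higher, Mafk (1.16) and Sqstm1 (0.44), and 1 was lower, Bach1 (-0.52). The shares of all genes in that contrast were 10.2% higher and 8.89% lower, and the median of the list was -0.013.

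The further NRF2 targets numbered 29, from glutathione reductase to the ferritins. In NRVMs 13 of the 27 tested were higher and 2 lower, beside 27.1% and 25.7% of all genes, with a median of 0.19. Those with the smallest adjusted p were Gsr, glutathione reductase (33.1 ± 1.57 to 55.2 ± 3.31 CPM, log2 fold change 0.74), Gstp1 (0.63), Osgin1 (0.97) and the ferritin light chain Ftl1 (0.40). After TAC 2 of 28 tested were higher and 2 lower in the cKO hearts, near the shares of all genes (6.57% and 6.10%), with a median of 0.13. Epoxide hydrolase Ephx1 (33.0 ± 5.94 to 52.3 ± 1.23 CPM, 0.66) and Gsr (0.45) were higher, and the glutathione transferases Gsta4 (-0.43) and Gstm1 (-0.45) lower. None was called at 1 or 3 months. At 1 month Pir, an iron-binding nuclear protein, had the smallest p (-0.84, adjusted p = 0.973). At 3 months Ephx1 had the smallest p of the list, with a log2 fold change of 0.51 (adjusted p = 0.330 by edgeR). The tests of this paragraph are edgeR's, and the glutathione transferases are a family of near copies, so reads may be shared among them.

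A list of 25 other genes held antioxidant enzymes and related proteins, among them Txnip, that are not classed as NRF2 targets here. In NRVMs 4 of the 25 were higher and 9 lower, beside 27.1% and 25.7% of all genes, with a median of -0.03. Txnip, which inhibits thioredoxin, fell from 432 ± 36.3 to 220 ± 14.7 CPM (log2 fold change -0.98), and the mitochondrial thioredoxin reductase Txnrd2 (-0.53) and the peroxiredoxin Prdx2 (-0.33) were lower, while the methionine sulfoxide reductase Msrb1 was higher (0.53). After TAC 2 of 25 were higher in the cKO hearts, the glutathione peroxidases Gpx1 (44.8 ± 3.05 to 69.4 ± 5.91 CPM, 0.63, adjusted p = 0.00621 by edgeR) and Gpx8 (0.51), and 1 was lower, the mitochondrial Msrb2 (-0.57). These counts are near the shares of all genes (6.57% higher, 6.10% lower), and the median was 0.05. Gpx1 was also higher in the TAC controls than in the 3-month controls (0.64, adjusted p = 0.0227), the only call of this list in that contrast. None was called at 1 or 3 months.

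A list of 12 genes held sources of oxidants and related genes, among them Aifm2, which is not classed as a source here. Of the 12, 2 were higher and 3 lower in the cKO hearts after TAC. The shares of all genes were 6.57% and 6.10%, and the median of the list was 0.08. The NADPH oxidase Nox4 rose from 1.03 ± 0.335 to 8.82 ± 5.04 CPM (log2 fold change 3.10, SE 0.598, adjusted p = 0.0156 by edgeR), a larger step than that of any of the 10 antioxidant genes, although its groups overlapped. The xanthine dehydrogenase Xdh (-0.84), the monoamine oxidase Maob (-0.66) and the proline dehydrogenase Prodh (-0.48) were lower. In NRVMs Maob (2.05), Maoa (1.14) and Xdh (0.99) were higher and the phagocyte oxidase subunit Cybb lower (-0.40), with 3 of 10 higher and 2 lower in all, near the shares of all genes (27.1% and 25.7%), and a median of -0.11. None of the 12 was called at 1 or 3 months.

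The ATF4 list was read because Slc7a11 answers to that factor as well. After TAC 3 of 12 were higher in the cKO hearts and none lower: the mitochondrial folate enzyme Mthfd2 (1.66 ± 0.421 to 5.33 ± 1.34 CPM, log2 fold change 1.68, adjusted p = 0.00621 by edgeR), Slc3a2, the partner chain of the Slc7a11 transporter (0.46), and Atf4 (0.30). The share of all genes called higher was 6.57%, and the median of the list was 0.28. In NRVMs 5 of 11 were higher and 1 lower, beside 27.1% and 25.7% of all genes, with a median of 0.12 and with Sesn2 (0.75), Chac1 (0.57) and Trib3 (0.59) higher and the asparagine synthetase Asns lower (-0.29). At 1 and 3 months none was called.

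**Figure D4:**
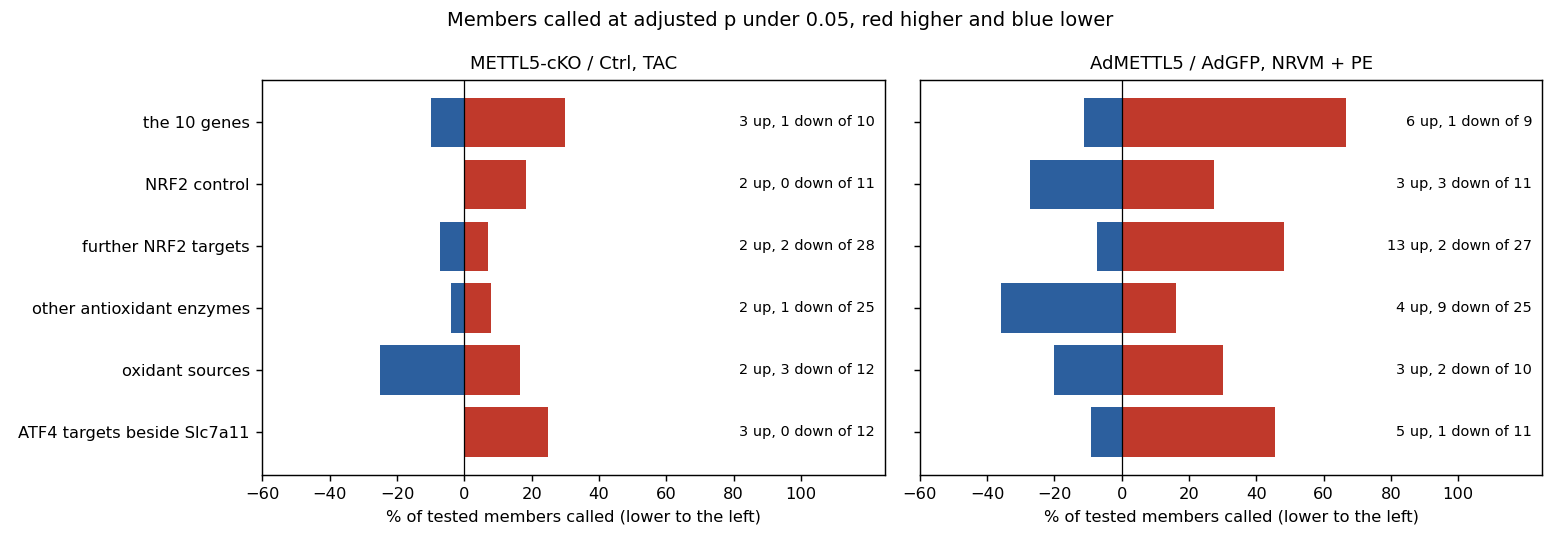
Share of tested members called at an adjusted p under 0.05, higher (red, to the right) and lower (blue, to the left), for the 10 genes and 5 further lists after TAC (left) and in NRVMs (right). Among the lists the further NRF2 targets in NRVMs have 13 of 27 higher, beside 27.1% of all genes called higher there. The share of all genes called in either direction was 12.7% after TAC and 52.8% in NRVMs.

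The genes whose standardised level moved most like that of Nfe2l2 over the 24 heart libraries were Slc4a8, Midn and Sgms1. The measure was the root mean square difference of standardised log2 CPM among 17597 genes, and it was 0.576, 0.648 and 0.660 SD. None of the 9 other members was among these 3, which says little, since their places among the 17597 genes were not read.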

How the data were processed

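The 10 members, the gene lists and the tests were chosen with earlier results of these data known. Groups came from the sample labels. Column names identified the sample in the 1-month table and only the group in the other 3, where libraries are numbered by ascending column number. The authors aligned reads with HISAT2 2.0.4 and made the deposited estimated counts per gene with StringTie 2.1.4 (mouse GRCm38, rat Rnor_6.0, versions per the labels, which also name DESeq2 1.4.5). The deposited values are whole numbers without scaling, and the plan had taken them as plain counts. Each table was fitted in edgeR 4.0.16 (R 4.3.3) with TMM, filterByExpr (minimum count 10, minimum total 15), glmQLFit and glmQLFTest. The tests of TAC against 3 months used the 16 libraries of both tables in 1 fit. Adjusted p are by Benjamini-Hochberg over all genes tested, and a member was called under 0.05. The exact permutation test compared mean log2 CPM (prior count 2) over the 70 labelings. Standard errors are the log2 fold change over the root of F. Positions and exon lengths are from GENCODE M21, and promoter windows from RefSeq. From each list the text names up to 4 called members with the smallest adjusted p, or up to 2 with the smallest p where none was called. Alternatives were DESeq2 1.42.0, its size factors, library size alone, no filter, 10 counts in every library, an unadjusted p, a replicate block at 1 month, for contrasts of 2 groups across tables the fit of those 8 libraries, and each library left out. The fits were tested on simulated data. Within each group no libraries were duplicates (closest pair, chi-square 2.11 per degree of freedom), and pairs across groups were not compared. Over all genes tested, the median SE was 0.175 (1 month), 0.157 (3 months), 0.134 (TAC) and 0.0807 (NRVMs) on the log2 scale.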

Additional observations from a re-analysis of the deposited data

Results flagged for a closer look

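Of 78 groups of 4 libraries, 2 held a library apart from the other 3 by Dixon's criterion at the 95% level, where chance gives about 1 in 20. Hmox1 had 10.7 CPM in control library 1 at 3 months, against 4.62 to 5.42 in the other 3. Without that library the log2 fold change of Hmox1 at 3 months was 0.40 instead of 0.04, still not called (adjusted p = 0.365 by edgeR's quasi-likelihood test), and the same library also had the highest Nfe2l2 of its group (74.1 CPM). Sod2 had 332 CPM in cKO library 4 after TAC, against 259 to 266 in the other 3 cKO libraries. Without it the log2 fold change of Sod2 was -0.54 (adjusted p = 0.00117 by edgeR), and 3899 in place of 2071 genes were called over the whole table.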

How the results depend on the processing

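Depth was not varied, and 4 libraries per group limit what can be called. After TAC the count of 4 members fell to 1 without the filter on low counts, where Sod2 remained, was 5 with library size alone and at an unadjusted p (Nqo1 added in both), and ranged from 0 to 4 with single libraries left out (0 without control 2, control 4 or cKO 2; 1 without control 3, cKO 1 or cKO 3; 3 without control 1). These fits have fewer samples, and over all genes they called from 479 to 3899. At an unadjusted p the count was 1 at 1 month, 1 at 3 months, 3 for the difference of the genotype effect and 3 for the TAC controls against 3 months. DESeq2 gave 1 at 3 months (Gclm), 2 for the difference (Gpx3 and Sod2) and 1 for the TAC controls (Gclm); the cause was not tested. Leaving out a library gave 0 to 2 members for the difference (2 without cKO 4 after TAC) and 2 to 4 for the cKO hearts (2 without cKO 2 after TAC). In NRVMs the count was 7 under each alternative but library size alone (8) and library left out (6 to 7). Scaling by library size moved the median of all genes by 0.147 after TAC and 0.135 in NRVMs, and among genes called after TAC 2060 of 2584 were then higher, against 1074 of 2071 with TMM; in the TAC controls 23 of 47 were, against 58 of 88. That scaling turned values near 0 that were not called: Srxn1 at 1 month (0.0039), Sod2 (0.014) and Gpx3 (0.0012) at 3 months, Sod2 in NRVMs (0.046), Slc7a11 in the difference (0.073) and Srxn1 in the TAC controls (-0.024). DESeq2 called 13 genes in place of 1 at 1 month, 108 in place of 12 at 3 months, 231 in place of 1 for the difference and 519 in place of 88 for the TAC controls. Without the filter these were 1 at 3 months, 0 for the difference, 21 for the TAC controls and 1052 after TAC. Library size alone gave 0 at 1 month, 0 for the difference and 47 for the TAC controls, which gave 234 with their 8 libraries fitted alone. At an unadjusted p the counts over all genes were 747 at 1 month, 1155 at 3 months, 5062 after TAC, 2011 for the difference, 2997 for the TAC controls and 5527, against 3257, for the cKO hearts. With a library left out the counts over all genes were 0 to 2 at 1 month, 2 to 9 at 3 months, 0 to 679 for the difference, 11 to 223 for the TAC controls and 2076 to 3873 for the cKO hearts.

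With a library left out, some of the log2 fold changes that were not called spanned 0, and others kept their sign. After TAC, for example, Txnrd1 ranged from 0.32 to 0.86 and Nqo1 from 0.26 to 0.43. The ranges that spanned 0 follow. At 1 month the ranges were -0.34 to 0.18 for Nqo1, -0.17 to 0.13 for Gclc, -0.15 to 0.25 for Slc7a11, -0.028 to 0.42 for Txnrd1 and -0.11 to 0.011 for Srxn1. At 3 months they were -0.012 to 0.085 for Gclc, -0.092 to 0.40 for Hmox1 and -0.13 to 0.38 for Txnrd1. For the difference they were -0.21 to 0.13 for Nfe2l2 and -0.084 to 0.061 for Slc7a11, for the TAC controls -0.12 to 0.22 for Nfe2l2, -0.084 to 0.12 for Srxn1 and -0.51 to 0.022 for Txnrd1, and for the cKO hearts -0.086 to 0.091 for Nfe2l2 and -0.035 to 0.47 for Txnrd1. With the replicate block at 1 month 0 members and 1 gene were called. Whether the numbers pair the samples could not be decided, because so few libraries give little power. The correlations of same-numbered libraries were 0.239, 0.120, -0.107 and 0.0782, and not every library correlated best with its own number. No paired analysis was possible for the other tables because their columns carry no replicate numbers shared between the groups.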
